A study of Homo sapiens with 12 samples.

Results

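Genes of the Notch pathway, 10 in all, were followed through the development of lapatinib resistance in BT474, a human breast cancer cell line with amplified HER2. They are the receptors NOTCH1, NOTCH2, NOTCH3 and NOTCH4, the ligands JAG1, JAG2 and DLL1, and the target genes HES1, HEY1 and NRARP. They were taken by symbol, and all 10 were found among the 26485 genes listed. mRNA was sequenced in bulk from 4 groups of 3 libraries each. Control was BT474 at day 0, read as untreated although its treatment label names lapatinib like the others. DTP (drug-tolerant persisters) were collected at day 9, DTEP (drug-tolerant expanded persisters) at month 6 and LR (long-term resistant cells) at month 9 of exposure to 1 µM lapatinib, a kinase inhibitor of HER2 and EGFR. All groups carry the wild-type genotype and come from the same cell line. No untreated library stands beside day 9, month 6 or month 9, so exposure to lapatinib and time in culture cannot be told apart. The study names the 3 libraries of each group technical replicates in 1 place and parallel plates in another, so n counts libraries here, and SDs and p-values may cover technical spread only.

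Notch is a receptor that is cut when a ligand on a neighbouring cell pulls on it. Cleavage by an ADAM protease and then by gamma-secretase frees the intracellular domain, which enters the nucleus, binds the DNA-binding protein RBPJ together with a Mastermind coactivator, and switches on targets such as the HES and HEY repressors. In the mammary epithelium the pathway takes part in the choice between luminal and basal fates, and in breast cancer JAG1 and the receptors have been studied for their part in drug response and self-renewal.

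Levels are normalised read counts, the deposited signal, which is reads relative to the scaled size of their library. Between 16383363 and 25030482 reads were assigned in each library. A single library stood apart from its group. DTEP replicate 3 correlated with the LR libraries at Pearson r 0.971 to 0.986 across genes and with the other DTEP libraries at 0.934 to 0.962, so results that rest on it are given with and without it. All 7 luminal markers, ERBB2 and keratins among them, were above 1 in every library, with a summed level of 10520 to 11263 in Control and of 12878 to 15300 in DTP. The sum was lower later, at 4240 to 6171 in DTEP and 3991 to 5450 in LR. Its members did not move together, since in DTEP against Control ERBB2 was 4.01-fold lower (adjusted p = 1.04e-05) and CDH1 10.3-fold lower (adjusted p = 7.26e-08), whereas GATA3 was 6.09-fold higher (adjusted p = 3.26e-07) and EPCAM 1.61-fold higher (adjusted p = 0.00161). Of 16 markers of fibroblasts, endothelium and leukocytes, 14 stayed at or below 0.403 in every library. The other 2 were COL1A1 and VWF. COL1A1 made up nearly all of the fibroblast sum, and ranged from 50.9 to 61.7 in Control and from 48.1 to 59.2 in DTP. It was higher later, with 79.8 to 121 in DTEP (0.82 on the log2 scale against Control, adjusted p = 0.0013) and 98.4 to 130 in LR (0.98, adjusted p = 0.000322). In these later groups all 3 ligands below were raised, whereas JAG1 was already raised in DTP. The part of COL1A1 in the ligand values was not tested. VWF went with an endothelial sum of 8.19 to 8.94 in Control, 2.19 to 2.66 in DTP and at most 0.478 afterwards.

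NOTCH2 and NOTCH3 were the abundant receptors of BT474, NOTCH1 was lower and NOTCH4 was close to undetected. NOTCH1 and NOTCH2 fell in DTP by more than a factor of 2 and rose again in DTEP, whereas NOTCH3 stayed within a narrow range. No receptor passed between LR and Control in the fit of all 12 libraries.

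NOTCH1, a receptor with oncogenic and tumour-suppressive roles, spans chr9:136494433-136546048 on the minus strand (GRCh38, the hg38 build of the alignment). Its normalised read count was 29.7, 28.4 and 27.9 in Control, 9.97, 11.3 and 11.9 in DTP, 23.7, 35.8 and 30.2 in DTEP, and 25.6, 36.2 and 27.96 in LR. The 3 DTP libraries lay below all others, and the other 3 groups overlapped each other. Of all tested genes, 77.3% had no overlap in DTP against Control and 67.3% in DTEP against DTP. The mean of 11.05 ± 0.992 in DTP was 2.60-fold below the 28.7 ± 0.930 of Control (SD, n = 3 each), a log2 change of -1.30 ± 0.18 (SE; adjusted p = 0.000121). From DTP to DTEP it rose by 1.34 ± 0.18 (adjusted p = 3.8e-05), and LR differed from DTEP by 0.00 ± 0.18 (adjusted p = 0.988).

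NOTCH2, at chr1:119911553-120069662 on the minus strand, stood at 400, 414 and 406 in Control and at 129, 147 and 205 in DTP. It was 195, 284 and 587 in DTEP and 555, 529 and 489 in LR. The DTEP libraries spanned from the DTP range to above the LR range, and replicate 3 was the high one. The fall in DTP was 2.53-fold, a log2 change of -1.36 ± 0.31 (adjusted p = 0.00295). The rise from DTP to DTEP was 1.02 ± 0.31 (adjusted p = 0.0113), or 0.58 (adjusted p = 0.0182) without DTEP replicate 3. It did not pass where only the 6 libraries of the comparison were fitted (adjusted p = 0.0503). DTEP did not pass against Control (-0.35 ± 0.31, adjusted p = 0.356), but without that library it lay below Control by -0.78 (adjusted p = 0.00394), and LR then lay above DTEP by 1.15 (adjusted p = 0.000783) in place of 0.71 ± 0.31 (adjusted p = 0.128). LR against Control was 0.36 ± 0.31 (adjusted p = 0.323), although its 3 libraries all exceeded the 3 Control libraries, and it passed with only these 6 libraries fitted (adjusted p = 0.00458). Groups without overlap were found for 77% of all tested genes in this comparison. A near-identical partial copy, NOTCH2NL, is listed at 2.35 to 5.85, and how the counting divided reads between them is not known, so the level of NOTCH2 is uncertain to that extent.

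NOTCH3, at chr19:15159038-15200995 on the minus strand, is a receptor known from luminal progenitors of the mammary gland. It read 224, 201 and 228 in Control, 178, 166 and 162 in DTP, 177, 179 and 196 in DTEP, and 186, 222 and 199 in LR. In proportion to its level, its range over the 12 libraries was smaller than that of NOTCH1 or NOTCH2. DTP was 1.29-fold below Control (-0.37 ± 0.11, adjusted p = 0.0174), which did not pass with edgeR on the recovered reads (adjusted p = 0.0668) or without Control replicate 1, Control replicate 3 or DTP replicate 2 (adjusted p = 0.0607 to 0.0694). The other 4 comparisons did not pass, with log2 changes from -0.24 to 0.14. DTEP against Control, however, passed without DTEP replicate 3 (-0.29, adjusted p = 0.0379), with median-of-ratios scaling (-0.30, adjusted p = 0.047) and with DESeq2 on the recovered reads (-0.30, adjusted p = 0.0241).

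NOTCH4, a receptor best known from endothelium, at chr6:32194843-32224067 on the minus strand, had 8, 4 and 4 reads in Control, 11, 10 and 6 in DTP, 2, 4 and 1 in DTEP, and 2, 2 and 3 in LR. It did not reach the minimum of 1 normalised read count in 3 libraries and was not tested. GPSM3 overlaps its span, and reads were assigned without regard to strand.

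**Figure D1:**
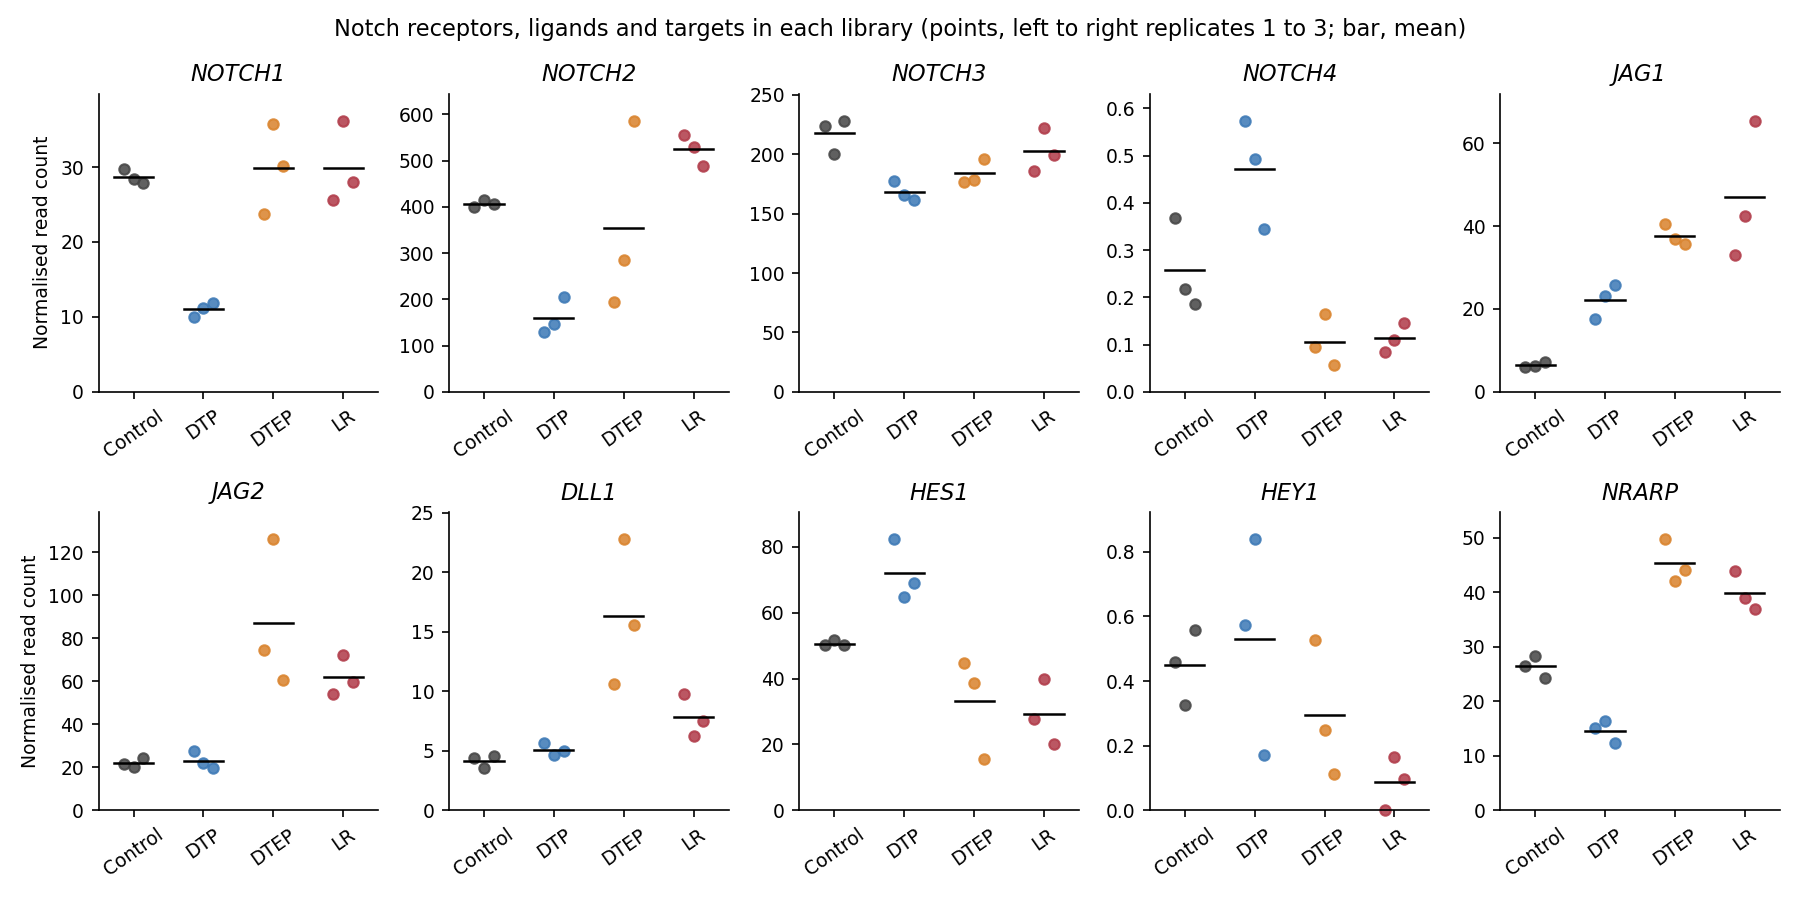
Normalised read count (linear axes from 0) of each of the 10 genes in the 12 libraries, by group; points are libraries and bars are group means. NOTCH1 dips in DTP to 9.97 to 11.9 and returns, JAG1 is lowest in Control at 5.89 to 7.27, and HES1 and NRARP lie on opposite sides of their Control levels in the other groups.

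The ligands moved upwards, at different stages. JAG1 was already higher in DTP and stayed high, JAG2 and DLL1 were at Control level in DTP and rose in DTEP, and all 3 remained above Control in LR. JAG1 was the only one of the 10 genes to pass the size threshold of the study, an absolute log2 change above 2 with an adjusted p below 0.05.

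JAG1, the Jagged ligand most studied in breast cancer, spans chr20:10637684-10673999 on the minus strand. Its normalised read count was 5.89, 6.31 and 7.27 in Control, 17.7, 23.2 and 25.7 in DTP, 40.5, 36.9 and 35.7 in DTEP, and 33.0, 42.5 and 65.5 in LR. Control, DTP and DTEP formed 3 separate levels in that order, and LR, the most spread group, overlapped DTEP. Separation of this kind was found for 77.3% of all tested genes in DTP against Control. It was found for 67.3% in DTEP against DTP and 65.6% in DTEP against Control. The rise in DTP was 3.42-fold (1.62 ± 0.23, adjusted p = 0.000132), and DTEP stood 1.70-fold above DTP (0.75 ± 0.23, adjusted p = 0.0116). The latter did not pass without DTP replicate 1 (0.60, adjusted p = 0.0546). Against Control the level was 5.81-fold higher in DTEP (2.37 ± 0.23, adjusted p = 3.14e-06) and 7.24-fold higher in LR (2.63 ± 0.23, adjusted p = 1.09e-06). LR did not pass against DTEP (0.26 ± 0.23, adjusted p = 0.434).

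JAG2, the second Jagged ligand, spans chr14:105140995-105168776 on the minus strand. It stood at 21.5, 20.1 and 24.4 in Control and at 27.7, 21.9 and 19.9 in DTP, 2 groups that overlapped (0.06 ± 0.24, adjusted p = 0.852). It was 74.8, 126 and 60.7 in DTEP and 53.9, 72.2 and 59.9 in LR, so that every library of the later groups exceeded every earlier one. Of all tested genes 67.3% had no overlap in DTEP against DTP, 65.6% in DTEP against Control and 77% in LR against Control. DTEP was 3.77-fold above DTP (1.81 ± 0.24, adjusted p = 2.93e-05) and 3.96-fold above Control (1.87 ± 0.24, adjusted p = 3.09e-05). Without DTEP replicate 3 these log2 changes were 2.04 and 2.10, past the size threshold. LR was 2.82-fold above Control (1.45 ± 0.24, adjusted p = 0.000213), and LR against DTEP was -0.43 ± 0.24 (adjusted p = 0.215), or -0.65 (adjusted p = 0.0312) without DTEP replicate 3.

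DLL1, a Delta-like ligand, spans chr6:170282206-170291078 on the minus strand, where its span overlaps FAM120B. Its normalised read count was 4.37, 3.59 and 4.57 in Control, 5.64, 4.64 and 5.01 in DTP, 10.6, 22.8 and 15.5 in DTEP, and 9.76, 6.25 and 7.51 in LR. DTEP was the highest group, LR lay between it and the earlier groups, and the DTP libraries lay just above the Control libraries without passing (0.24 ± 0.25, adjusted p = 0.443). DLL1 rose 3.20-fold from DTP to DTEP (1.45 ± 0.25, adjusted p = 0.000245) and was 3.91-fold above Control there (1.69 ± 0.25, adjusted p = 0.000101). It was the only tested gene of the 10 to pass between DTEP and LR, lower in LR by -0.93 ± 0.25 (adjusted p = 0.0459), which did not pass in 13 of 22 alternative settings. LR stayed 1.88-fold above Control (0.76 ± 0.25, adjusted p = 0.0184), which did not pass without Control replicate 2 (adjusted p = 0.0703) or LR replicate 1 (adjusted p = 0.0777).

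**Figure D2:**
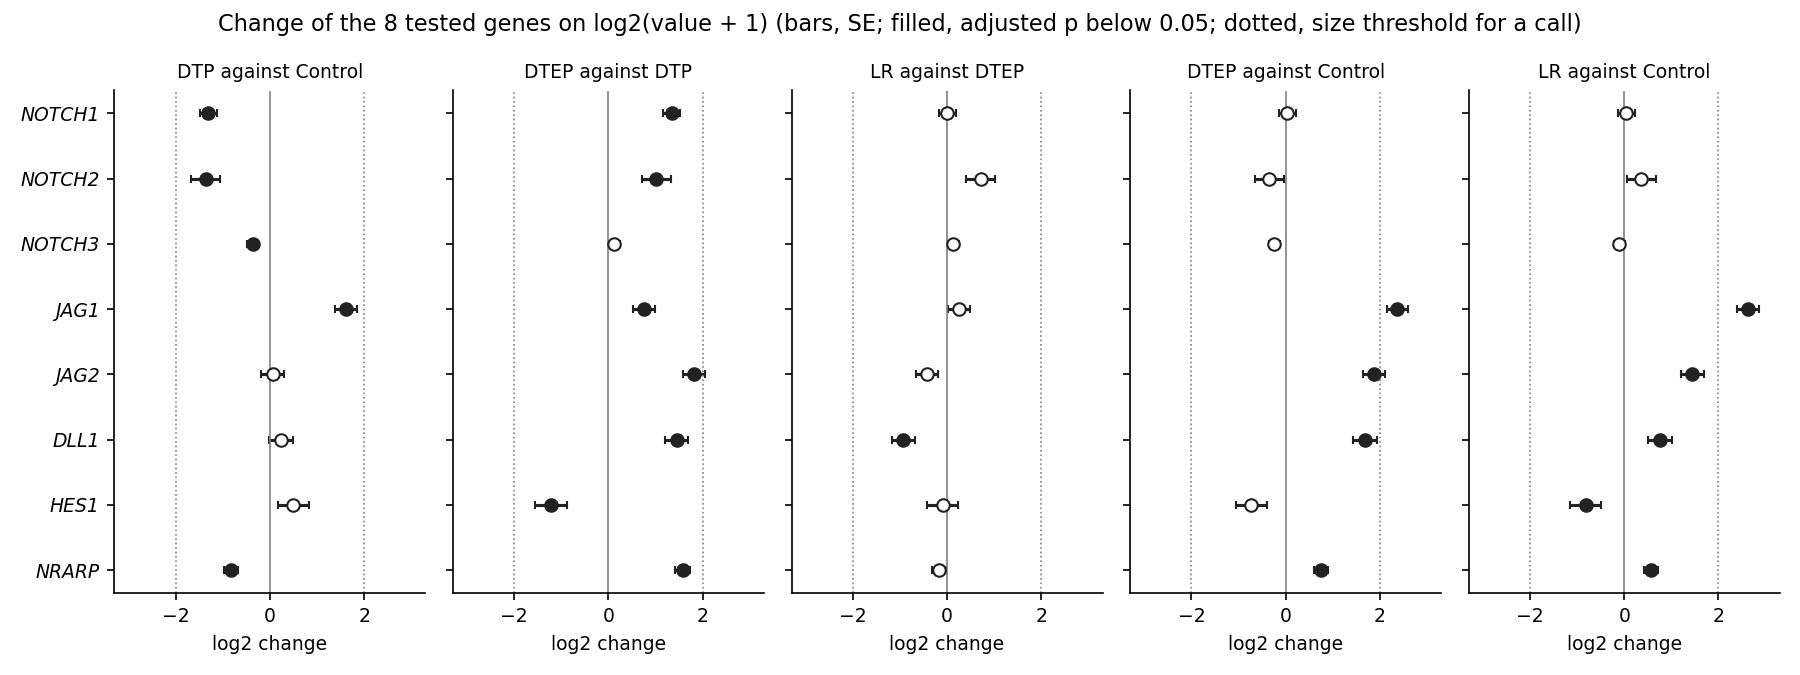
Log2 change on log2(value + 1) of the 8 tested genes in the 5 comparisons; points are limma estimates, bars are standard errors, filled points have an adjusted p below 0.05 and dotted lines mark the size threshold for a call. Points pass on both sides of 0 in DTP against Control, JAG1 lies past the threshold in DTEP (2.37) and LR (2.63) against Control, and most points of LR against DTEP are open.

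The targets did not move together. NRARP fell in DTP and rose in DTEP, as NOTCH1 did, while HES1 had its highest values in DTP and its lowest in DTEP and LR. HEY1 was close to undetected in every group.

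NRARP encodes a small ankyrin-repeat protein that binds the Notch complex and limits it. The gene lies at chr9:137299631-137302271 on the minus strand. It read 26.5, 28.4 and 24.3 in Control, 15.1, 16.4 and 12.3 in DTP, 49.7, 42.0 and 44.1 in DTEP, and 43.9, 38.9 and 36.9 in LR. DTP lay below Control and both later groups lay above it, with no overlap, while DTEP and LR overlapped each other. Of all tested genes 77.3%, 65.6% and 77% likewise had no overlap with Control in DTP, DTEP and LR. The fall in DTP was 1.81-fold (-0.82 ± 0.15, adjusted p = 0.000779) and the rise to DTEP was 3.10-fold (1.57 ± 0.15, adjusted p = 2.21e-06). Against Control, NRARP was 1.72-fold higher in DTEP (0.76 ± 0.15, adjusted p = 0.000977) and 1.51-fold higher in LR (0.58 ± 0.15, adjusted p = 0.00522).

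HES1 encodes a basic helix-loop-helix repressor that also represses its own gene, and responds to other pathways besides Notch. The gene lies at chr3:194136148-194138732 on the plus strand. Its normalised read count was 50.1, 51.6 and 50.1 in Control, 82.4, 64.9 and 69.0 in DTP, 44.9, 38.6 and 15.7 in DTEP, and 27.8, 40.0 and 20.2 in LR. Every DTP library was above, and every DTEP and LR library below, the Control libraries, with DTEP replicate 3 the lowest. Such a lack of overlap with Control was found for 77.3%, 65.6% and 77% of all tested genes in DTP, DTEP and LR. The higher level in DTP did not pass (0.50 ± 0.33, adjusted p = 0.225), with an adjusted p of 0.00312 where only the 6 libraries of the comparison were fitted and of 0.0478 without DTEP replicate 3. From DTP to DTEP HES1 fell 2.18-fold (-1.22 ± 0.33, adjusted p = 0.00579), or by -0.77 (adjusted p = 0.00889) without DTEP replicate 3. LR was 1.72-fold below Control (-0.82 ± 0.33, adjusted p = 0.0472), which did not pass in 12 of 22 alternative settings, and DTEP against Control was -0.72 ± 0.33 (adjusted p = 0.078), or -0.27 (adjusted p = 0.302) without DTEP replicate 3. The latter comparison passed without DTEP replicate 1 (-1.003, adjusted p = 0.0223) and with the replicate number as a block (adjusted p = 0.0476).

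HEY1, a HES-related repressor on chromosome 8, had 10, 6 and 12 reads in Control, 11, 17 and 3 in DTP, 11, 6 and 2 in DTEP, and 0, 3 and 2 in LR. It did not reach the minimum level and was not tested. In the LR library without a read, a level of up to 3 reads remained possible. Such limits cover counting error alone, because no molecular identifiers were used.

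The ratio of HES1 to NRARP reads within a library, chosen for description after its values were seen, put the opposite courses of the targets into a single number. It was 1.89, 1.82 and 2.06 in Control, 5.44, 3.96 and 5.60 in DTP, 0.903, 0.921 and 0.356 in DTEP, and 0.634, 1.03 and 0.548 in LR. The ratio was above the Control range in every DTP library and below it in every DTEP and LR library, with or without DTEP replicate 3. How many ratios of other gene pairs would separate in this way was not counted. In bulk RNA, more transcript per cell and more cells with the transcript cannot be told apart for these or any of the other genes.

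**Figure D3:**
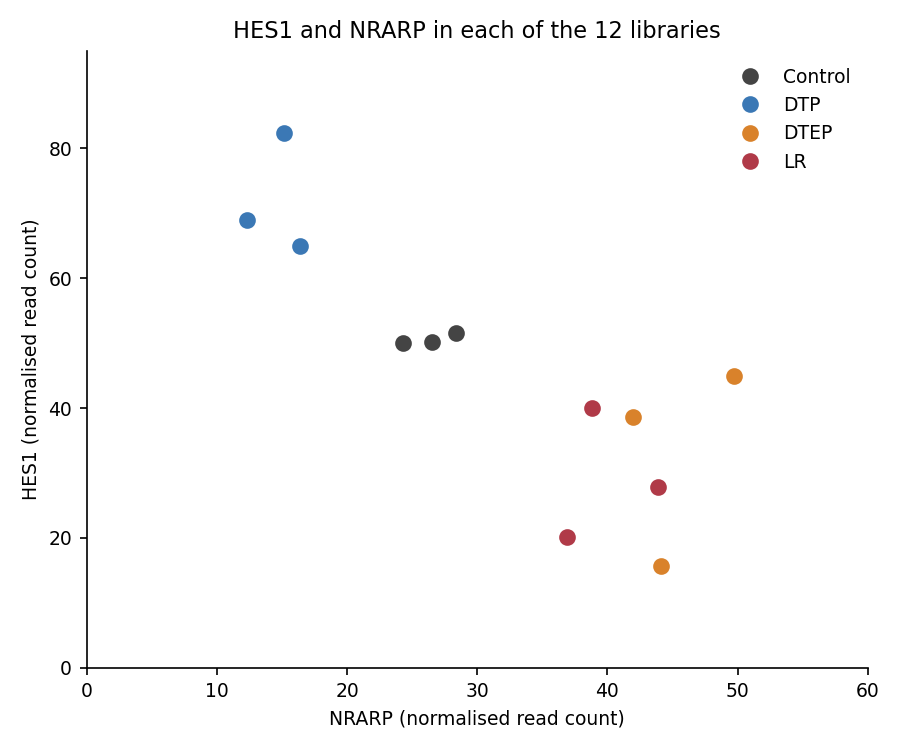
HES1 against NRARP in normalised read counts (linear axes from 0), a point for each of the 12 libraries, coloured by group. DTP libraries sit at the upper left with NRARP at 12.3 to 16.4, Control libraries in the middle, and DTEP and LR libraries mix at the lower right with NRARP at 36.9 to 49.7.

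The proximal promoters of these targets are shown because HES1 is a classic direct target of the RBPJ complex, whose binding core reads TGGGAA. The stretches run 5′ to 3′ on the strand of the gene from RefSeq on GRCh38.p14, with TGGGAA, or its reverse complement where the match is on the other strand, in capitals. For HES1 and NRARP they are the 150 bases before the transcription start, at chr3:194135998-194136147 (plus strand) and chr9:137302272-137302421 (minus strand). HEY2, a further target gene that is described with the rest of the pathway below, is shown from 250 to 151 bases before its start, at chr6:125749382-125749481 (plus strand).
HES1: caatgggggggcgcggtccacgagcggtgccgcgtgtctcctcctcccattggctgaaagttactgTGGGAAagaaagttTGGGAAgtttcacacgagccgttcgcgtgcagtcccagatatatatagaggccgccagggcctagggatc
NRARP: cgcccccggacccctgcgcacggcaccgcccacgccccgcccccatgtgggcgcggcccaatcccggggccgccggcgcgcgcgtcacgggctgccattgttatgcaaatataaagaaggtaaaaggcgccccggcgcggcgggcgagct
HEY2: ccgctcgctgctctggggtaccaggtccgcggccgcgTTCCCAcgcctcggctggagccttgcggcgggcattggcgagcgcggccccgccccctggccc

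HES1 held TGGGAA at 84 and 70 bases before its start, both on the plus strand, and HEY2 held it once, at 213 bases before the start on the minus strand. At least 1 match on either strand was found in the 250 bases before the start of 20.8% of 35116 promoters, and at least 2 in 2.90%. Promoters were matched for 8 of the 10 genes, not for DLL1 or HEY1, and HES1 was the only one of the 8 with a match in this window. CACNAG, the N box that HES1 itself can bind (N for any base), occurred in HES1 at 165 bases on the minus strand and at 132 and 58 bases on the plus strand, against at least 1 match in 32.0% and at least 2 in 6.32% of promoters. These are matches of letters and not measured sites.

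Between genes, levels were compared per kilobase of the reference transcript (MANE Select exons). NOTCH2 and NOTCH3 together made up nearly all receptor signal per kilobase in every group. NOTCH2 held 55.9% ± 1.95 of it in Control and 40.2% ± 6.65 in DTP, and NOTCH3 39.3% ± 1.996 and 56.3% ± 6.61 (SD, n = 3). NOTCH3 thus exceeded NOTCH2 per kilobase in all 3 DTP libraries and in DTEP replicate 1, and NOTCH2 exceeded NOTCH3 in the other 8 libraries. In LR the shares were 63.4% ± 3.01 for NOTCH2 and 32.2% ± 2.41 for NOTCH3. NOTCH1 held 3.33% to 5.96% as group means and NOTCH4 at most 0.205%. The summed receptor signal of Control was 63.7 ± 1.22 normalised read counts per kilobase. It was 34.7 ± 2.78 in DTP and 55.4 ± 19.3 in DTEP, where the libraries were far apart, and LR had 72.4 ± 3.54. DTEP replicates 1, 2 and 3 had sums of 39.96, 49.2 and 77.1. In the same order, NOTCH2 held 42.8%, 50.5% and 66.6% and NOTCH3 51.0%, 41.8% and 29.3%, so the DTEP sum and shares depended on replicate 3.

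The summed ligand signal per kilobase was smaller, with 6.01 ± 0.594 in Control and 9.10 ± 0.170 in DTP. DTEP had 25.8 ± 7.27 and LR 20.7 ± 3.00. JAG2 was the leading ligand in Control with 63.4% ± 0.0436 of this sum, and JAG1 and DLL1 held 18.2% ± 1.24 and 18.4% ± 1.22. In DTP the share of JAG1 was 41.2% ± 8.03 and that of JAG2 44.03% ± 7.06, with JAG1 ahead in replicates 2 and 3. JAG2 led again in DTEP with 57.5% ± 6.58, and in LR JAG2 held 52.2% ± 7.23 and JAG1 37.5% ± 8.40, where the order differed between libraries.

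**Figure D4:**
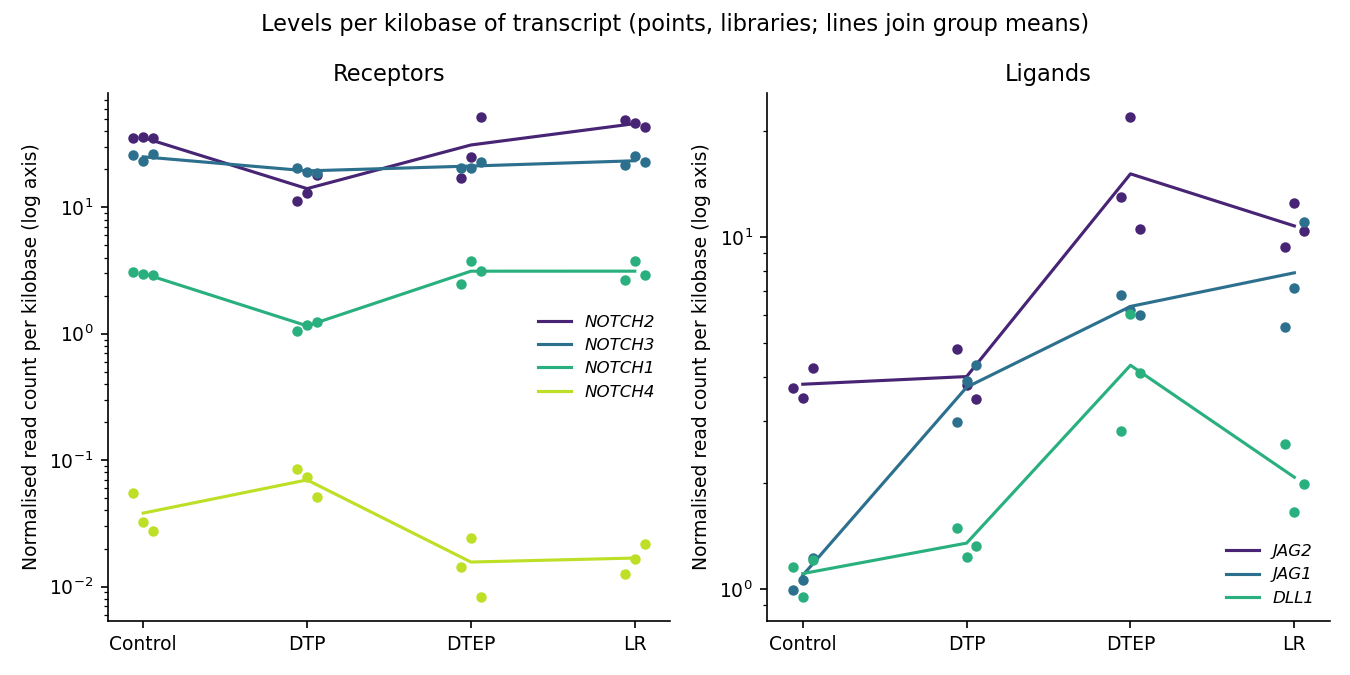
Normalised read count per kilobase of transcript on a log axis for receptors (left) and ligands (right); points are libraries and lines join group means. NOTCH3 lies above NOTCH2 in DTP, where they held 56.3% and 40.2% of the receptor sum, and all ligand means are higher in DTEP and LR than in Control.

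Over the 10 genes, 8 were tested. In DTP against Control 1 was higher (JAG1) and 4 were lower (NOTCH1, NOTCH2, NOTCH3, NRARP) at an adjusted p below 0.05, where 25.2% of all 13794 tested genes were higher and 28.8% lower. In DTEP against DTP 6 were higher and 1, HES1, was lower, beside 35.7% and 32.6% of all genes. In LR against DTEP 0 were higher and 1 was lower, beside 3.04% and 4.31%. Against Control, DTEP had 4 higher and 0 lower (29.5% and 28.7% of all genes). LR had 4 higher and 1 lower (30.2% and 32.6%). The median log2 change of the 8 was -0.15, 1.18 and -0.04 over the successive steps, beside -0.01, 0.08 and -0.07 over all genes, and 0.40 and 0.47 in DTEP and LR against Control, beside 0.02 and -0.03. Every group enters more than 1 of the comparisons, which therefore are not independent of each other.

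With the size threshold added, limma called 0 of the 8 in each successive step, although 5, 7 and 2 of them had an unadjusted p below 0.05. Both edgeR and DESeq2 on the recovered reads also called 0. At this threshold the calls over all genes were 1.01% higher and 3.9% lower for DTP against Control. For DTEP against DTP they were 8.13% and 7.02%, and for LR against DTEP 0.225% and 0.457%. JAG1 was the single call in DTEP against Control (4.43% of all genes called higher, 6.2% lower) and in LR against Control (5.03% higher, 7.8% lower). In DTEP against Control edgeR called 3 of the 8 and DESeq2 called 1.

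The rest of the pathway was described with a list of 54 genes, of which 46 reached the minimum level. Changes in both directions were found in DTP, with 12 of the 46 higher and 18 lower than in Control, where 25.2% of all tested genes were higher and 28.8% lower. In DTEP 18 were higher and 13 lower than in DTP (35.7% and 32.6% of all genes), and 1 was higher and 1 lower in LR than in DTEP (3.04% and 4.31%). Against Control, DTEP had 17 higher and 12 lower (29.5% and 28.7%), and LR had 20 higher and 13 lower (30.2% and 32.6%). Their median log2 changes were -0.07, 0.12 and 0.08 over the steps, beside -0.01, 0.08 and -0.07 over all genes, and 0.07 and 0.37 against Control, beside 0.02 and -0.03.

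The counts by role describe few genes each, and the shares of all genes for a comparison are given at its first count. Among the 9 genes of receptor cleavage, the ADAM proteases and gamma-secretase subunits with FURIN, 4 were higher and 2 lower in DTP than in Control, and 6 were higher and 1 lower in LR, beside 25.2% higher and 28.8% lower of all genes in DTP and 30.2% and 32.6% in LR. The 6 glycosylation genes, which include the Fringe enzymes that tune ligand choice, showed 2 higher and 3 lower in DTP, and 1 higher and 3 lower in LR. Of the 15 genes of the nuclear complex and its corepressors, 3 were higher and 5 lower in DTP, 7 higher and 1 lower in DTEP against DTP (35.7% and 32.6% of all genes), and 8 higher and 1 lower in LR against Control. The 11 tested genes of endocytosis and ubiquitination gave 3 higher and 6 lower in DTP, and 5 of each in LR. The 4 tested other HES and HEY genes gave 0 higher and 2 lower in DTP, 1 higher and 2 lower in DTEP against DTP, and 0 higher and 3 lower in LR.

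Of the 8 genes named from this list for the size of their change on log2(value + 1), 5 act on ligands and receptors at the membrane or on their degradation. This ranking understates changes of low genes, so the roles of the 8 depend on it. NEURL1B, a ubiquitin ligase for Notch ligands, stood at 64.3, 66.5 and 64.7 in Control, 4.54, 4.89 and 4.95 in DTP, and 41.6, 31.3 and 57.5 in DTEP. It fell 13.6-fold in DTP (-3.51 ± 0.26, adjusted p = 1.08e-06) and rose 9.07-fold in DTEP (2.90 ± 0.26, adjusted p = 1.13e-06). MIB1, the ligase needed for ligand endocytosis, fell 4.22-fold in DTP, from 177, 180 and 142 to 26.9, 34.7 and 56.5 (-2.11 ± 0.33, adjusted p = 0.000239). Without DTP replicate 1 the change was -1.88, short of the size threshold. Both ligases were thus low in the group in which JAG1 was already raised. Other RefSeq genes overlap the spans of both, and reads may be shared with them.

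FBXW7, the ubiquitin ligase subunit that marks the cleaved Notch domain for degradation, was at 21.7, 20.4 and 20.9 in Control, 15.6, 19.4 and 23.3 in DTP, and 167, 206 and 174 in DTEP. It rose 9.36-fold from DTP to DTEP (3.17 ± 0.16, adjusted p = 1.65e-08) and was 8.67-fold above Control (3.05 ± 0.16, adjusted p = 2.17e-08). FBXW7 overlaps an antisense gene, FBXW7-AS1, and reads of the 2 cannot be told apart without strand. ITCH, a ligase that targets uncleaved Notch, went the other way in DTEP, from 853, 861 and 802 in Control to 138, 150 and 142 (5.84-fold lower, -2.54 ± 0.18, adjusted p = 2.07e-07). It had already fallen in DTP, to 289, 343 and 494 (-1.19 ± 0.18, adjusted p = 0.000184). NUMBL, a relative of the Notch inhibitor NUMB, was 7.77-fold lower in LR, at 3.89, 3.43 and 3.44, than in Control, at 28.6, 27.9 and 27.2 (-2.66 ± 0.27, adjusted p = 4.43e-06). It was already low in DTEP, at 11.3, 7.17 and 3.82, and LR did not pass against DTEP (adjusted p = 0.0812). In DTP it was above Control, at 59.9, 47.1 and 46.6 (0.84 ± 0.27, adjusted p = 0.0204).

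KAT2B, a histone acetyltransferase that joins the Notch complex, read 1.04, 3.06 and 4.20 in DTP and 14.7, 22.8 and 44.1 in DTEP (2.87 ± 0.39, adjusted p = 4.19e-05), or 2.46 without DTEP replicate 3. MAML2, a Mastermind coactivator, was called in the same comparison but fell outside the ranking. It went from 5.22, 7.65 and 10.0 in DTP to 0.431, 0.371 and 0 in DTEP (28.6-fold lower, -2.75 ± 0.21, adjusted p = 3.64e-07). ADAM10 (2.10) and EOGT (2.35) were also called there, both higher, and fell outside it too. TLE4, a Groucho corepressor that HES proteins recruit, was at 0.414, 0.489 and 0.0932 in Control and at 3.21, 6.64 and 32.3 in LR (2.95 ± 0.69, adjusted p = 0.0026), or 2.10 without LR replicate 3, which lay far above the others. In DTEP TLE4 was at 11.5, 9.06 and 1.40, and LR did not pass against DTEP (adjusted p = 0.539). HEY2, the HES-related repressor whose promoter is shown above, went from 15.4, 15.4 and 13.2 in Control through 7.20, 6.17 and 7.20 in DTP. Only 2 to 7 reads per library were left in DTEP, and 0 or 1 in LR. The log2 change against Control was -3.71 ± 0.14 in DTEP (adjusted p = 1.66e-09) and -3.94 ± 0.14 in LR (adjusted p = 8.82e-10), and these depend on the 1 added before the logarithm. From 901 reads in Control and 13 in DTEP the ratio of pooled levels was 70.9, with an exact 95% counting interval of 41.2 to 134. With 1 read in LR it was 912, with an interval of 163 to 36074. HES1 and HEY2 were thus both below Control in LR while NRARP was above it. The endothelial marker VWF fell over the same groups, and its part in the HEY2 values was not tested.

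**Figure D5:**
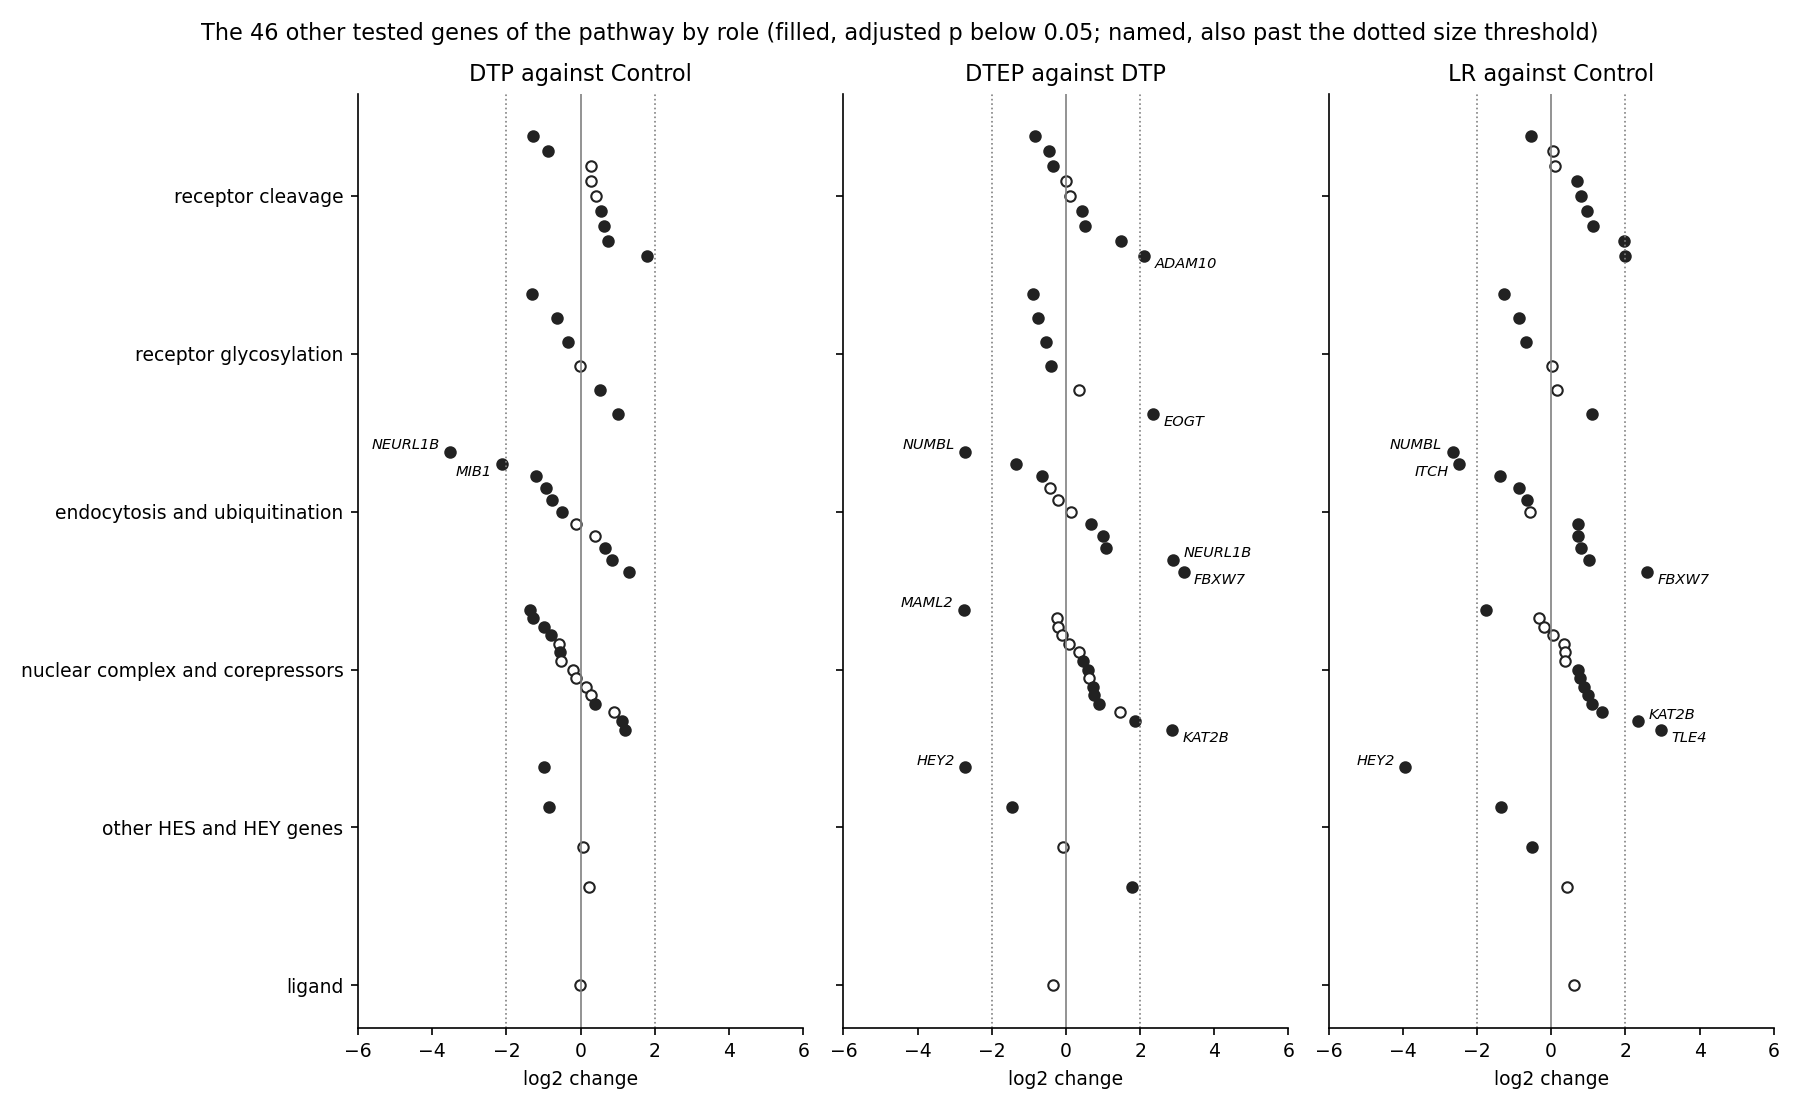
Log2 change on log2(value + 1) of the 46 other tested pathway genes by role in 3 of the comparisons; filled points have an adjusted p below 0.05, dotted lines mark the size threshold and genes past both are named. NEURL1B (-3.51) and MIB1 (-2.11) stand out to the left in DTP against Control, and HEY2 (-3.94) in LR against Control.

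The genes whose course was most like that of JAG1 over the 12 libraries were NEK3, a NIMA-related kinase (Pearson r 0.980), and COQ10A, a coenzyme Q10 binding protein (r 0.972), on log2(value + 1). These correlations are a description over libraries that fall into 4 groups. Mean levels were 5.82, 12.7, 20.7 and 23.0 for NEK3 and 1.44, 5.76, 13.2 and 13.7 for COQ10A in Control, DTP, DTEP and LR.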

How the data were processed

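RNA-seq of BT474 cells was analysed in 12 libraries. The authors aligned stranded mRNA reads to hg38 with Rsubread, assigned them to RefSeq gene models by default settings, and deposited a normalised signal per gene. The smallest step of each library turned all 199680 values above 0 (100%) into whole reads within 1e-06, and CPM from edgeR 4.0.16 with TMM equalled the deposited signal in all 12 libraries. Values are used as deposited.

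limma 3.58.1 (R 4.3.3) was fitted to log2(value + 1) of all 12 libraries together, no covariates, variances moderated with a trend. A gene was tested if its value reached 1 in 3 or more libraries. Tests were two-sided, with Benjamini-Hochberg adjustment over the 13794 genes of each of 5 comparisons. Passing means an adjusted p below 0.05, and a call needs a log2 change beyond 2 in either direction as well, the thresholds of the study. Because 1 is added, log2 changes understate those of low genes, and folds are ratios of group means.

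Groups and replicate numbers came from the sample labels. The 10 genes and all lists were chosen with earlier results of these data known. The other pathway genes named are those called, at most 3 per comparison by size of change, and the 2 genes most correlated with each called member. MAML2, ADAM10 and EOGT, called outside this limit, are given as well. Alternatives covered pseudocounts of 0.5 and 0.1, filters, moderation, the libraries fitted, scaling, a replicate block, edgeR, DESeq2 1.42.0, a smaller size threshold and each library left out. On simulated reads with 200 genes changed, limma recovered 200 at the adjusted p alone, with 12 unchanged genes also passing among 12979 genes. The size threshold was not part of this check. The changed genes were well read, their changes were large, and all genes had the same set spread (negative binomial size 50). The check therefore does not measure recovery of smaller changes or in groups as spread as DTEP.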

Additional observations from a re-analysis of the deposited data

How the results depend on the processing

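Of 880 values (40 log2 changes of the tested genes under 22 alternative settings), 824 kept their direction and their side of the threshold, 33 no longer passed the adjusted p, 11 newly passed it and 12 changed sign. The cause was not tested. With an absolute log2 change above 1, the calls were 3, 6, 0, 3 and 2 (DTP against Control, then DTEP against DTP, LR against DTEP, DTEP against Control and LR against Control). The share of all genes called at this smaller threshold is not given here, so these counts are not read as particular to the tested genes. At the adjusted p alone, 35.7% of all genes were higher and 32.6% lower in DTEP against DTP. In DTEP against Control edgeR called 3, JAG2 and DLL1 besides JAG1. The genes passing the adjusted p in LR against DTEP were 0 without the filter, with only the 6 libraries compared and with the replicate block, and 0 to 3 with 1 library left out, the 3 being without DTEP replicate 3. Leaving out 1 library gave 0 to 1 calls in DTEP against DTP and 1 to 2 in DTEP against Control (the higher counts without DTEP replicate 3), and 3 to 5 genes passing in LR against Control, 3 without Control replicate 2 or LR replicate 1. With a library left out, some values close to 0 changed sign. In DTP against Control JAG2 ran from -0.069 to 0.16. In LR against DTEP NOTCH1 ran from -0.15 to 0.14, JAG1 from -0.0079 to 0.48 and HES1 from -0.54 to 0.19. In DTEP against Control NOTCH1 ran from -0.097 to 0.19 and NOTCH2 from -0.78 to 0.0064, and in LR against Control NOTCH1 from -0.098 to 0.15. Median-of-ratios scaling and DESeq2 gave NOTCH1 in DTEP against Control as -0.019 and -0.0024. Replicate numbers were shared across groups, but the deviations of libraries with the same number correlated at -0.44 to 0.36 and in only 2 of 18 pairs above 0.1, so the numbers were not taken as a pairing; the block gave 5, 7, 0, 5 and 5 genes passing in the order of comparisons above, HES1 newly in DTEP against Control. The 11 changes of other pathway genes named by rank kept their direction and an adjusted p below 0.05 under all 22 settings. They had been picked as the largest calls in the same libraries, so this is no separate support for them. MIB1 in DTP against Control, at -2.40 to -1.88, lost the size threshold without DTP replicate 1. NOTCH4 and HEY1, with at most 17 reads in a library, were too shallow to test.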
